A study of Rattus norvegicus with 6 samples.

Results

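The genes described here encode the subunits of the rat proteasome with its activators and assembly chaperones, read out in newborn ovaries cultured with or without connective tissue growth factor (CTGF). They were chosen by gene symbol, with earlier results of these data known. Every probe set whose single annotated symbol began with Psma to Psmg followed by a number was taken. This gave 54 of the 27342 probe sets and 47 of the 14324 genes that a probe set named alone. Each gene was represented by its probe set with the highest mean over the 6 arrays. The name pattern also matched 2 genes that are not part of the proteasome, Psmc3ip, a meiotic recombination factor, and Psme3ip1, a partner of the activator Psme3, so that 45 proteasome genes remained. Psma8, Psmf1 and Psmg3 had no probe set that named them alone and were not analysed here.

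Whole ovaries came from female Sprague-Dawley rats on the day of birth (P0) and were kept in organ culture for 24 h, a period in which oocyte nests begin to break up into primordial follicles. The 3 control samples received no treatment and the 3 CTGF samples received human CTGF, a secreted matrix-associated protein, at 500 ng/ml. Each sample pooled 2 or 3 ovaries of littermates from one culture well. Pools of the same replicate number were taken as a culture date batch, so that each of 3 batches held 1 control and 1 CTGF pool. RNA was hybridised to 1 array per pool, and the small number of arrays limits the precision of every value below. Because whole ovaries were extracted, fewer cells of a type and less RNA per cell cannot be told apart. Germ cell markers were detected: all 6 measured of 9 listed lay above the background level defined below.

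The proteasome degrades proteins that carry a chain of ubiquitin. Its core particle is a barrel of alpha rings, which gate the entrance, and beta rings, in which Psmb6, Psmb7 and Psmb5 carry the caspase-like, trypsin-like and chymotrypsin-like activities. Under interferon these catalytic subunits can be replaced by Psmb9, Psmb10 and Psmb8, which gives the immunoproteasome that shapes peptides for class I antigen presentation. The regulatory particle binds ubiquitin chains, removes them and unfolds the substrate with a ring of ATPases, and oocytes rely on protein degradation to pass through meiosis.

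The stretches upstream of the catalytic genes are shown because the comparison of constitutive and interferon-inducible forms turns on these 6 genes. Each sequence is the 250 bases before the annotated gene start in RefSeq on the rat build GRCr8, read 5' to 3' on the gene's own strand, with capitals for matches on either strand to TGACNNNGC (antioxidant response element), TTCNNNGAA (gamma-activated site) or the core of the interferon-stimulated response element (GAAA and GAAA with any pair of bases between them). The constitutive Psmb5 (chr15:32047380-32047629, minus strand) and Psmb6 (chr10:55737638-55737887, plus strand) each held 1 antioxidant response match, whereas Psmb7 (chr3:42827471-42827720, minus strand) held no match.
Psmb5: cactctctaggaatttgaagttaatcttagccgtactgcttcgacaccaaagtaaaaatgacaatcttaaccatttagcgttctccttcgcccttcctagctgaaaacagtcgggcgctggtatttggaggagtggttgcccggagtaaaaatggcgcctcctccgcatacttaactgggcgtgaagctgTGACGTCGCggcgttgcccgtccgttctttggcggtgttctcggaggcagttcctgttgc
Psmb6: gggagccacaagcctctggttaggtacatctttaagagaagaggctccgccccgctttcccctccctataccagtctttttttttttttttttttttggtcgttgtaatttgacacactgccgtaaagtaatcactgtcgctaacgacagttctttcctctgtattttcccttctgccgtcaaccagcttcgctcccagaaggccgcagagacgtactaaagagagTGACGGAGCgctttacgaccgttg
Psmb7: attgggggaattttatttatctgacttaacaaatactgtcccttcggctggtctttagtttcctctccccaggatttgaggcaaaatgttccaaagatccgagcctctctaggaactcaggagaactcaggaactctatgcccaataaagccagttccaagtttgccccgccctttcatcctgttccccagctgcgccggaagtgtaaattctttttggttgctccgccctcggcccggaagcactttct
Among the inducible forms, Psmb8 (chr20:4657032-4657281, minus strand) held 1 gamma-activated site match, Psmb9 (chr20:4668750-4668999, plus strand) held none, and Psmb10 (chr19:50743293-50743542, minus strand) held 2 interferon-response matches.
Psmb8: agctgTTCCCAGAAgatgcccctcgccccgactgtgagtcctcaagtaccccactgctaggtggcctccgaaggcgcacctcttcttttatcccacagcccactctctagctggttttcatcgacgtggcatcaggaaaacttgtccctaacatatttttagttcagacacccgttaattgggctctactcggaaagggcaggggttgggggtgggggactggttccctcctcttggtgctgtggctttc
Psmb9: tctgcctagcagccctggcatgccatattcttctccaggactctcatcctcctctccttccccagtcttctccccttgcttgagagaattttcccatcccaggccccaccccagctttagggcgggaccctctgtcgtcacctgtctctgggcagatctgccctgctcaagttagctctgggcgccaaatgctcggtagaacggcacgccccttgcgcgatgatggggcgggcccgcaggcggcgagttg
Psmb10: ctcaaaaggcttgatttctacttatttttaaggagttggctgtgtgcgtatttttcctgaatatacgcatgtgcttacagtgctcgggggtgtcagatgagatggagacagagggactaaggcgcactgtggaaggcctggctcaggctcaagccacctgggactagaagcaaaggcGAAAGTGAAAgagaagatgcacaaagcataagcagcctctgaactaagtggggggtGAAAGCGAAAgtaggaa
Of the 45 proteasome genes, 40 were matched to a RefSeq window. The antioxidant response letters occurred in 7 of these 40 (17.5%) and in 10.1% of all 33469 windows. The interferon-response core occurred in 5 of 40 (12.5%) against 3.41%, and the gamma-activated site in 4 of 40 (10%) against 7.67%. The GC box GGGCGG occurred in 28 of 40 (70%) against 30.5% of all windows, and CCAAT in 18 of 40 (45%) against 34%. A match is a description of the letters and not a binding site.

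No proteasome gene differed between CTGF and control ovaries by the test across all probe sets. With limma and the culture batch as a block, 0 of 45 genes had an unadjusted p under 0.05, compared with 3.35% of all 27342 probe sets (915), and after Benjamini-Hochberg adjustment no probe set on the array passed 0.05 (0%), every proteasome gene having an adjusted p of 0.994. The mean differences, CTGF minus control on the log2 scale, ran from -0.14 for Psmd4, a ubiquitin receptor of the regulatory particle, to 0.10 for Psmg2, a core assembly chaperone, with a median of -0.02. Of the 45 genes, 15 had a mean difference above 0 and 30 below, beside 47.2% above and 51.1% below among all probe sets. This split depended on the batch: 32 genes were above 0 without batch 3, 9 without batch 1 and 10 without batch 2. As ratios of un-logged means the range was 0.905 to 1.07.

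The intervals of these differences set how large a change the 6 arrays could have missed. For 35 of 45 genes the 95% confidence interval lay wholly between a 0.83-fold and a 1.2-fold ratio, the limits that the study's own gene list used. The other 10 genes reached past one of these limits, and the widest bounds were 0.745-fold for Psmb9 and 1.33-fold for Psmg2. In the deposited values each probe set had nearly the same mean in the 3 batches, so the CTGF arrays lay above or below every control array exactly when all 3 batch differences had that sign. None of the 45 genes met the study's criteria of ratio, signal difference and p, applied with the limma p, which 0.435% of all probe sets met. By the sign in all 3 batches, 1 proteasome gene was higher in every CTGF array (Psme3), beside 9.41% of all probe sets, and 3 were lower (Psmb4, Psmb7 and Psmd10), beside 10.9%. Both shares among the proteasome genes were below those of the whole array.

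**Figure D1:**
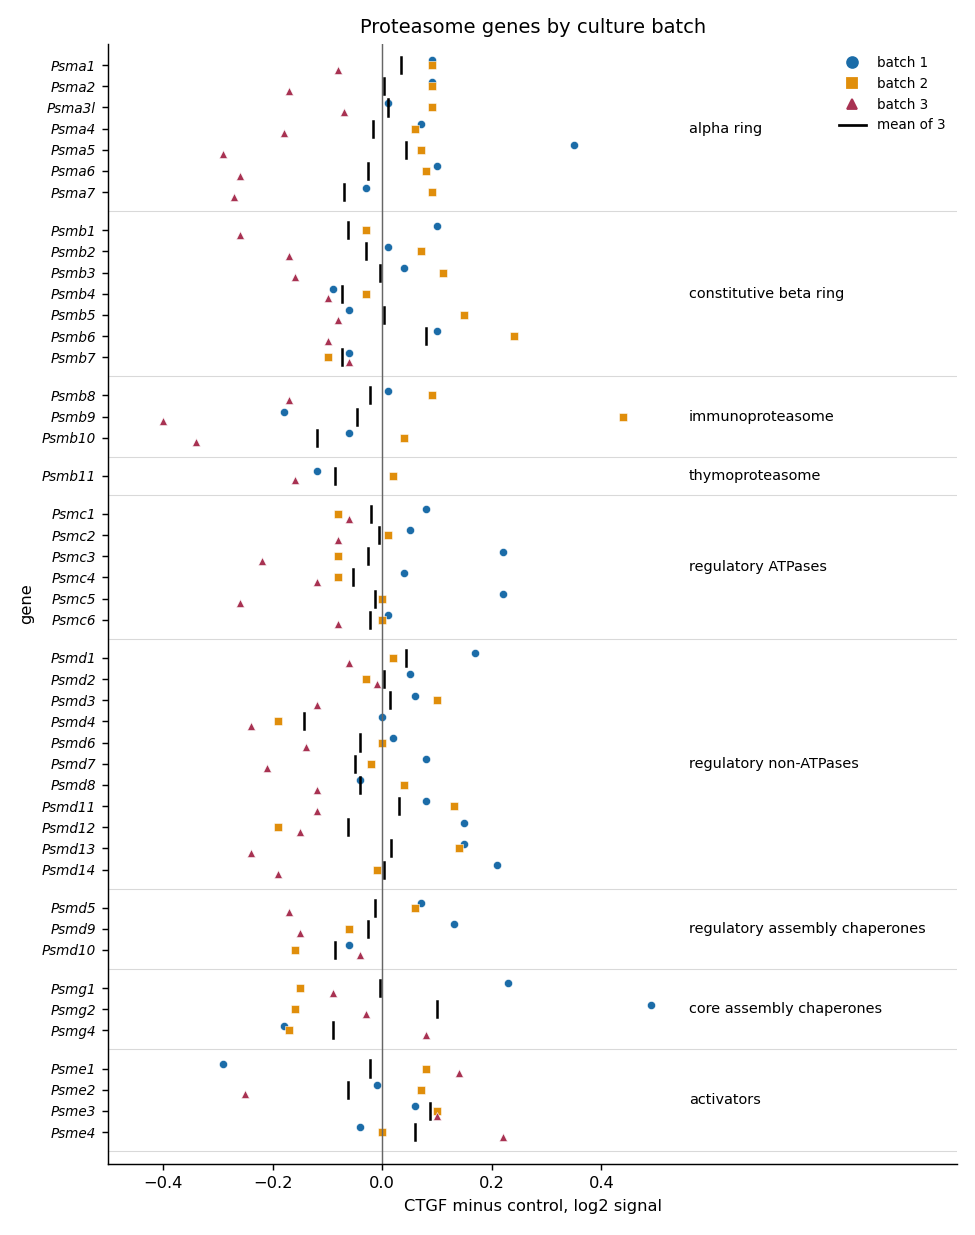
Difference CTGF minus control in log2 signal (x axis) for each of 45 proteasome genes (y axis, grouped by role), with a point for each culture batch and a vertical bar for the mean of the 3 batches. The bars lie between -0.14 and 0.10, while the triangles of batch 3 lie to the left of 0 for 41 of 45 genes.

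Among the constitutive catalytic genes, Psmb5, which cuts after hydrophobic residues, had log2 signals of 9.32, 9.22 and 9.33 in the control pools of batches 1 to 3 and 9.26, 9.37 and 9.25 in the CTGF pools. The groups overlapped, with mean un-logged signals of 626 ± 26.1 in control and 628 ± 29.3 in CTGF ovaries (SD, n = 3 each). Because batch means had been equalised in the deposited values, SDs within a group leave out the spread between batches, here and below. For Psmb5 the mean log2 difference was 0.00 (SE 0.075). Psmb6, which cuts after acidic residues, had control values of 7.72, 7.65 and 7.82 and CTGF values of 7.82, 7.89 and 7.72. It was higher with CTGF in batches 1 and 2 and lower in batch 3, with a mean log2 difference of 0.08 (SE 0.084). A second Psmb6 probe set, also above background, had batch differences of 0.18, -0.01 and -0.03. Psmb7, which cuts after basic residues, had control values of 10.33, 10.35 and 10.33 and CTGF values of 10.27, 10.25 and 10.27. All 3 CTGF pools lay below all 3 control pools, yet the mean log2 difference was only -0.07 (95% confidence interval -0.23 to 0.08).

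The inducible catalytic genes were detected above background, and none passed the test. Psmb8, the counterpart of Psmb5, had log2 signals of 7.05, 7.01 and 7.14 in control and 7.06, 7.10 and 6.97 in CTGF pools, a mean difference of -0.02 (SE 0.076). Psmb9, the counterpart of Psmb6, had control values of 7.22, 6.91 and 7.33 and CTGF values of 7.04, 7.35 and 6.93. Its batch differences of -0.18, 0.44 and -0.40 had the widest spread of the 45 genes (SD 0.436), and the mean difference of -0.05 had a 95% confidence interval from -0.42 to 0.33. Psmb10, the counterpart of Psmb7, had control values of 6.54, 6.49 and 6.68 and CTGF values of 6.48, 6.53 and 6.34. Most of its mean difference of -0.12 (SE 0.090) came from batch 3, where it was -0.34.

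The arrays measured RNA and not which subunits the proteasomes held, so exchange of constitutive for inducible subunits was not tested. At the RNA level, the CTGF minus control difference of each constitutive gene was subtracted from that of its inducible counterpart within a batch. For Psmb8 minus Psmb5 these differences of differences were 0.07, -0.06 and -0.09 in batches 1 to 3 (mean -0.03, SD 0.085, n = 3). For Psmb9 minus Psmb6 they were -0.28, 0.20 and -0.30 (mean -0.13, SD 0.283), and for Psmb10 minus Psmb7 0.00, 0.14 and -0.28 (mean -0.05, SD 0.214). In each pair the mean was smaller than its SD, and 3 pairs of pools allow no exact test below 0.05. The thymus form Psmb11 lay below the background level, at 4.20, 4.13 and 4.22 in control and 4.08, 4.15 and 4.06 in CTGF pools. Background was set at a log2 signal of 6, the 95th percentile of 40 genes of other organs. Of the 47 genes matched by name, 46 exceeded it, against 47.8% of all probe sets. These shares are not alike, because each gene stood for its highest probe set, whereas all probe sets include those without a symbol.

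**Figure D2:**
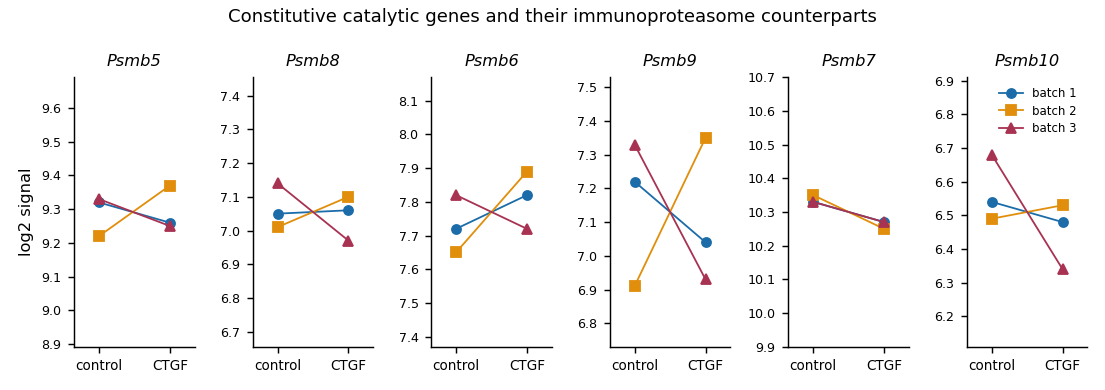
Log2 signal (y axis, each panel spanning the same width around its own mean) of the 3 constitutive catalytic genes and their inducible counterparts in control and CTGF pools (x axis), with a line joining the pools of each culture batch. The lines of Psmb7 all slope down and overlap closely, while those of Psmb9 cross, from 6.91 to 7.35 in batch 2 and from 7.33 to 6.93 in batch 3.

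Over the 14 constitutive core genes the median difference was -0.01, with 6 above 0 and 8 below, and Psmb4 and Psmb7 alone had the same sign in all 3 batches. In the 7 alpha ring genes, which form the gate of the barrel, batch medians were 0.09, 0.09 and -0.18. Psma5, an alpha ring subunit, had batch differences of 0.35, 0.07 and -0.29, the widest swing of the constitutive core. In the 7 constitutive beta ring genes the batch medians were 0.01, 0.07 and -0.10. The structural beta subunit Psmb4, named after its values were seen, had control values of 11.24, 11.21 and 11.24 and CTGF values of 11.15, 11.18 and 11.14. Its groups did not overlap, and its mean difference was -0.07.

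In the regulatory particle, 6 of 17 genes had a mean difference above 0 and 11 below, with a median of -0.02. All 6 ATPases (Psmc1 to Psmc6), which unfold the substrate, had means below 0, the lowest -0.05 for Psmc4, and all 6 were higher with CTGF in batch 1 and lower in batch 3. The ubiquitin receptor Psmd4 had the smallest p of all 45 genes. Its control values were 7.52, 7.61 and 7.64 and its CTGF values 7.52, 7.42 and 7.4. The pools of batch 1 were equal and those of batches 2 and 3 differed by -0.19 and -0.24, a mean of -0.14 (SE 0.075, 95% confidence interval -0.32 to 0.04). In un-logged signal Psmd4 stood at 193 ± 8.27 in control and 175 ± 7.87 in CTGF ovaries (SD, n = 3 each). Without batch 1 its difference was -0.21 and its unadjusted p was under 0.05, as for 2.36% of all probe sets, with an adjusted p of 0.978. Psmd1, the large scaffold that holds ubiquitin receptors, had control values of 10, 10.07 and 10.11 and CTGF values of 10.17, 10.09 and 10.05. Its differences changed sign between batches 2 and 3, and the mean was 0.04 (SE 0.073).

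No assembly chaperone passed the test. The 3 chaperones of the regulatory particle all had means below 0, and Psmd10 (gankyrin) had control values of 7.77, 7.82 and 7.76 and CTGF values of 7.71, 7.66 and 7.72. Its groups did not overlap, with a mean difference of -0.09 (SE 0.066). The core chaperone Psmg2 had control values of 8.12, 8.45 and 8.38 and CTGF values of 8.61, 8.29 and 8.35. Its mean of 0.10 (SE 0.129) rested on batch 1, where the difference was 0.49, whereas batches 2 and 3 gave -0.16 and -0.03. Psmg4, another core chaperone, had an unadjusted p under 0.05 only when batch 3 was left out (difference -0.17, adjusted p = 0.78), as had 4.55% of all probe sets.

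The activators, which open the core without ubiquitin, had a median difference of 0.12 in batch 3, where the median of every other class was below 0. Psme3, the nuclear activator, had control values of 9.54, 9.52 and 9.52 and CTGF values of 9.6, 9.62 and 9.62. Every CTGF pool was above every control pool, at 783 ± 6.25 against 738 ± 5.92 in un-logged signal (SD, n = 3 each), with a log2 difference of 0.09 (95% confidence interval -0.07 to 0.24). A second probe set for Psme3 had batch differences of 0.22, -0.10 and 0.12, so the non-overlap was not seen in both. Psme4, an activator with a role in spermatogenesis and DNA repair, had control values of 10.92, 10.90 and 10.79 and CTGF values of 10.88, 10.90 and 11.01. Its difference lay in batch 3, and the mean was 0.06 (SE 0.077).

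Psme1 and Psme2 form the interferon-inducible activator together. Psme1 had control values of 10.62, 10.43 and 10.40 and CTGF values of 10.33, 10.51 and 10.54, and Psme2 had 9.94, 9.90 and 10.06 against 9.93, 9.97 and 9.81. Their batch 3 differences had opposite signs, 0.14 and -0.25, and their means were -0.02 (SE 0.098) and -0.06 (SE 0.083). Of the 7 genes with more than 1 probe set, the sign of the mean difference was shared except in Psma6 (alpha ring) and Psmd8 (regulatory lid). In both, the second probe set lay below background. Psma6 had control values of 10.08, 10.09 and 10.26 and CTGF values of 10.18, 10.17 and 10, a mean of -0.03, and its second probe set had 0.01. Psmd8 had control values of 8.49, 8.45 and 8.53 and CTGF values of 8.45, 8.49 and 8.41, a mean of -0.04, and its second probe set had 0.05.

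The proteasome genes differed in direction between culture batches. In batch 1, 31 of 45 genes were higher in the CTGF pool and 13 lower, beside 51.9% higher and 44.9% lower among the 13081 probe sets above background. In batch 2, 25 were higher and 16 lower, beside 50.2% and 46.7%. In batch 3, 4 were higher and 41 lower, beside 45.4% and 51.5%. The median difference of the 45 genes was 0.05, 0.02 and -0.14 in batches 1 to 3, beside 0.01, 0.01 and -0.01 over probe sets above background. The 4 exceptions in batch 3 were the activators Psme1, Psme3 and Psme4 and the core chaperone Psmg4, which, like Psmb4, fell outside the rule for named genes and was named after its values were seen.

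All 34 structural genes (14 constitutive core, 3 inducible and 17 regulatory) were lower in the CTGF pool of batch 3. With array medians centred, 33 of 34 were lower and 1 higher, and after quantile normalization 33 were lower and none higher. Batch 3 medians were -0.17 in the constitutive core, -0.34 in the inducible genes and -0.12 in the regulatory particle. Because batch means had been equalised, the same shift also appears as a high control pool: the control pool of batch 3 was the highest array for 27 of 45 genes and the CTGF pool of batch 3 the lowest for 25. The shift compares 1 pool with 1 pool, and genes measured on the same arrays are not replicates of it. The median SD of the 3 batch differences was 0.140 over the 45 genes, beside 0.117 over probe sets above background.

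**Figure D3:**
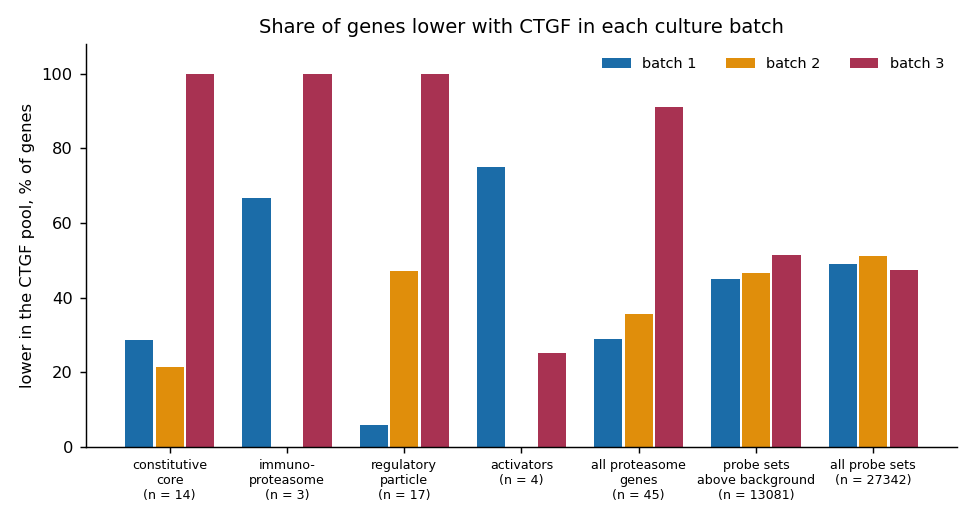
Share of genes lower in the CTGF pool than in the control pool (y axis, %) for classes of proteasome genes and for the whole array (x axis), with a bar for each culture batch. In batch 3 the constitutive core, inducible and regulatory genes were all lower, against 51.5% of probe sets above background, and a missing bar stands for 0%.

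Markers of the cells in the ovary also differed most in batch 3 for some lists. The 6 germ cell markers had median differences of 0.08, -0.06 and 0.21 in batches 1 to 3, and their summed signal was 4337 to 4808 in control and 4563 to 5040 in CTGF pools. The muscle and stroma markers (4 of 5 measured, 3 above background) had medians of 0.11, 0.06 and -0.59. In batch 3, 3 of them were lower and 1 was higher, Myh11 (0.03), which lay below background. Their summed signal, of which Col1a1 was the largest part, was 1494 to 2043 in control and 1315 to 1798 in CTGF pools. Pregranulosa and somatic markers (7 of 9 measured) had medians of -0.18, 0.04 and 0.08. Endothelial markers (4 of 6, 2 above background) had -0.03, 0.01 and -0.17, with 2 genes higher and 2 lower in batch 3. Mast cell markers (3 of 4, 2 above background) had medians of -0.02, -0.44 and -0.48, the values of Tpsab1, which lay below background. The other 2 went opposite ways: Cpa3 had -0.14, -0.80 and -1.52, and Kit, also a germ cell marker, had 0.12, 0.15 and 0.31. Leukocyte markers had medians of -0.09, -0.07 and -0.05, with 4 of the 12 measured above background. Their summed signal was 1586 to 1598 in control and 1551 to 1563 in CTGF pools. Cd14 was the largest part of it, with mean signals of 863 in control and 859 in CTGF pools. Fcer1g, at 238 and 213, had batch differences of 0.08, -0.27 and -0.30. Of the 12 markers, 5 had a mean difference above 0 and 7 below. In all 3 batches 3 were lower (Aif1, Cd3e and Tyrobp, all below background), beside 10.9% of all probe sets, and none was higher. Of these, Cd3e and Tyrobp had an unadjusted limma p under 0.05, beside 3.35% of all probe sets, with an adjusted p of 0.994. The part of these cell types in the batch 3 result was not tested.

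**Figure D4:**
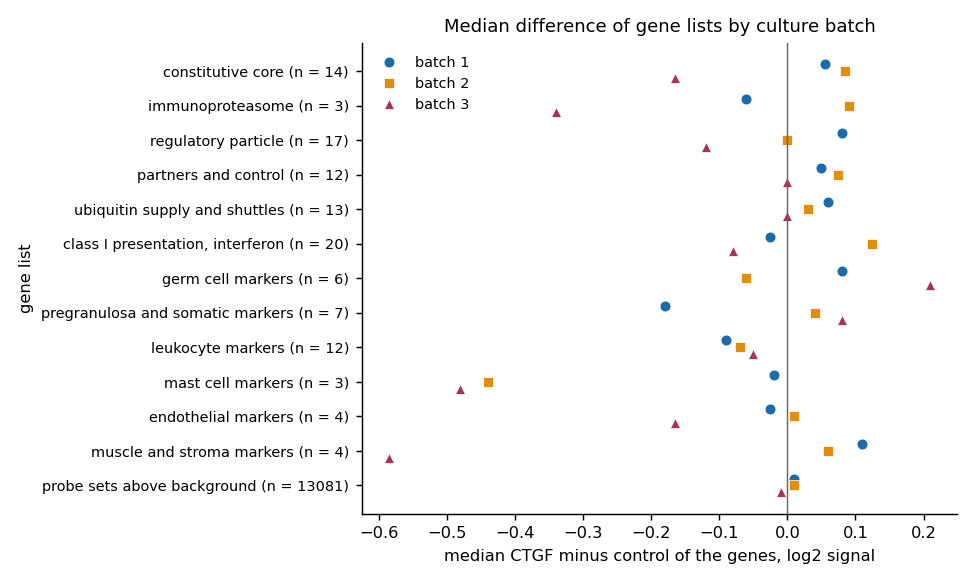
Median difference CTGF minus control in log2 signal (x axis) of proteasome classes, pathway lists and marker lists (y axis, with the number of genes), with a point for each culture batch. In batch 3 the 3 proteasome classes lie at -0.12 to -0.34, the partners and the ubiquitin list at 0.00, and the muscle and stroma markers at -0.59.

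The genes that work beside the proteasome had no common direction in batch 3. Of 12 measured partners and regulators, 10 had a mean difference above 0 and 2 below, with a median of 0.04, and none had a p under 0.05. The batch 3 median was 0.00, with 6 genes higher and 6 lower. In all 3 batches 5 of the 12 were higher (Usp14, Nfe2l1, Akirin2, Zfand5 and Txnl1), beside 9.41% of all probe sets, and none was lower. The 4 with the smallest p were Txnl1, a thioredoxin-like protein of the regulatory particle (0.09, SE 0.064), Akirin2, which brings proteasomes into the nucleus (0.09, SE 0.065), the proteasome-binding Zfand5 (0.07, SE 0.065) and the deubiquitinase Usp14 (0.07, SE 0.066). Pomp, which matures the core, and Nfe2l1, the transcription factor that raises proteasome genes when activity is short, were named after their values were seen. Pomp had batch differences of 0.47, -0.07 and -0.29, and Nfe2l1 had 0.01, 0.05 and 0.12.

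Of 13 measured genes that supply ubiquitin or carry substrates, 11 had a mean difference above 0 and 2 below, with a median of 0.04. The shuttle Ubqln2 alone had a p under 0.05, beside 3.35% of all probe sets, with batch differences of 0.32, 0.19 and 0.22, a mean of 0.24 (SE 0.066, adjusted p = 0.994). It did not pass the adjustment. Of the 13 genes, 3 were higher in 3 of 3 batches (Ubqln2, Nploc4 and Ube2n, the last named after its values were seen), beside 9.41% of all probe sets, and none was lower in all. Next were Nploc4 (0.13, SE 0.069), the unfoldase Vcp (0.10, SE 0.077) and Ubqln4 (0.10, SE 0.098).

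Class I presentation and interferon genes, of which 20 were measured beside the proteasome genes, split into 11 above 0 and 9 below, with a median of 0.01. Irf7, an interferon-induced transcription factor, had batch differences of 0.19, 0.19 and 0.46 (mean 0.28, SE 0.080), and the ubiquitin-like Isg15 had 0.07, 0.33 and 0.28 (mean 0.23, SE 0.077). These 2 of 20 genes had an unadjusted p under 0.05, beside 3.35% of all probe sets, and an adjusted p of 0.994. Irf7 lay below the background level, at a mean log2 signal of 5.86. Both were higher in 3 of 3 batches, beside 9.41% of all probe sets, and 2 genes of the list were lower in 3 of 3, beside 10.9%. Tapbp, which loads peptides onto class I molecules, had a mean of 0.21 (SE 0.109), and was lower in batch 3. Its relative Tapbpl had batch differences of -0.13, -0.11 and -0.19 (mean -0.14, SE 0.064). The other gene lower in all batches was Ifng, which lay below background and was named after its values were seen. The list's batch medians were -0.03, 0.13 and -0.08, and those of the inducible Psmb8, Psmb9 and Psmb10 were -0.06, 0.09 and -0.34.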

How the data were processed

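Gene expression was measured on 1 array per pool in 6 pools, 3 control and 3 CTGF, grouped by their labels. The replicate number in the labels was taken as the culture date batch. The submitters' processing notes name Partek and RMA, by which the authors summarised the probes of a set (versions not given in the sources used here), and the deposited values are log2 signals with 2 decimals. Batch differences were already gone from them: the batch means of a probe set differed by at most 0.005. The SDs of the control and CTGF groups are therefore not independent. No value column was without a sample (0).

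Differences were tested with limma 3.58.1 in R 4.3.3 on all 27342 probe sets, with the culture batch as a block and Benjamini-Hochberg adjustment. Pools with the same replicate number were taken to share a batch. The moderated variance had 4.22 prior degrees of freedom. P-values of this fit rest on the spread of the CTGF minus control differences between batches, with that moderated variance. They do not measure the spread between pools of a group. The fitting script was tested on simulated data, as a check of the code and not of the power to detect small differences. Un-logged signals are 2 raised to the deposited value. Symbols came from GEO's platform annotation, which named 1 gene for 15097 probe sets, several for 323 and none for 11922. The Entrez numbers of 46 of the 47 genes were found in RefSeq, in which Psma3l is a synonym of Psma3.

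The members and all lists were chosen with earlier results of these data known, so lists are described by counts and medians with no test. Named were the catalytic genes, activators and Psmb11, the 5 higher and 5 lower members with the smallest p, members whose probe sets differ in sign, and up to 4 genes of each pathway list with the smallest p. Alternatives covered the block, moderation, scaling, choice of probe set, filter, thresholds and leaving out each replicate. Python 3.11.15, pandas 2.3.3, numpy 2.4.6 and matplotlib 3.10.9 were used for tables and figures.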

Additional observations from a re-analysis of the deposited data

How the results depend on the processing

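The count of proteasome genes at an adjusted p under 0.05 was 0 under every alternative run. The count at an unadjusted p under 0.05, which was 0, became 5 with no replicate block (Psme3, Psmb4, Psmb7, Psmd10 and Psmd4, smallest adjusted p 0.172), when 16.1% of all probe sets also passed, and 2 (Psme3 and Psmb7) with an unmoderated 2-way test, when 4.2% passed. The paired structure had already been removed from the values as deposited, so the fit without the block counts degrees of freedom that the values no longer hold. Leaving out each replicate in turn gave 0 to 1: Psmd4 without batch 1 (log2 difference -0.21, beside 2.36% of all probe sets) and Psmg4 without batch 3 (-0.17, beside 4.55%). The count of genes with a mean difference above 0, which was 15, ran from 9 to 32 when a replicate was left out. It was 9 without batch 1, 10 without batch 2 and 32 without batch 3.

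For the 29 named genes, 254 of 288 values kept their direction and side of the threshold, 15 newly passed it, 6 no longer did and 13 reversed. The 6 that no longer passed were all of Irf7 and Isg15, in the unmoderated test or with a replicate left out. Psmb5 was -0.0064 after quantile normalization and Psmd8 was 0.0033 as the mean of its probe sets. The other 11 reversals came from leaving out a replicate. The ranges over replicates left out were -0.29 to 0.13 for Psmb9, -0.10 to 0.11 for Psme1, -0.10 to 0.23 for Psmg2, -0.02 to 0.095 for Psmd1, -0.03 to 0.17 for Ubqln4, -0.07 to 0.045 for Psmb5, -0.08 to 0.05 for Psmb8, -0.13 to 0.03 for Psme2, -0.02 to 0.11 for Psme4 and -0.09 to 0.09 for Psma6. The class medians turned sign without batch 3, to 0.06 in the constitutive core, 0.05 in the inducible genes and 0.03 in the regulatory particle. Over the replicates left out the constitutive core ran from -0.06 to 0.06, the inducible genes from -0.20 to 0.05 and the regulatory particle from -0.07 to 0.03. The precision is limited by 3 pools per group and 2 residual degrees of freedom.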
